A study of Homo sapiens with 16 samples.

Results

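The genes described here encode 55 subunits of the 5 complexes of oxidative phosphorylation and were taken by gene symbol from the 58735 genes of the count tables. They are the 13 protein-coding genes of the mitochondrial genome and 42 nuclear genes for subunits of the same complexes, 24 of complex I, 4 of complex II, 5 of complex III, 6 of complex IV and 3 of complex V. All 55 were found, and all 55 passed the filter on low counts in each comparison.

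The respiratory chain passes electrons from NADH and succinate to oxygen through complexes I to IV and pumps protons across the inner mitochondrial membrane, and complex V, the ATP synthase, uses that gradient to make ATP. Complexes I, III, IV and V are built from subunits of both genomes, so their assembly needs messages made in the nucleus and in the mitochondrion, whereas complex II is wholly nuclear. The mitochondrial genome is copied into long polycistronic transcripts from each strand. Those of the heavy strand give all of its messages except MT-ND6, which comes from the light-strand transcript, and the tRNAs between the genes are cut out to release them.

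The series measured messenger RNA in MDA-MB-231 and SUM159PT, established human lines of triple-negative breast cancer, so named because it has neither hormone receptor nor extra copies of HER2. Cells of each line, labelled WT in genotype, were transfected with an siRNA against YES1 (siYES1), a tyrosine kinase of the Src family, or with a control siRNA against firefly luciferase (siNS). All groups received Lipofectamine2000, and the titles give 48 h. Each of the 4 groups had 4 libraries, 16 in all, which the design text calls technical replicates, so p-values measure only the spread between such samples. In the SUM159PT table the column prefix does not match that name, which is used here because the titles and labels give it. Counts summed to between 15863961 and 21158617 per library in MDA-MB-231 and between 15680459 and 23451253 in SUM159PT. In MDA-MB-231 siNS replicates 1 and 2 lay apart from replicates 3 and 4 on the second principal component, at 14.0 and 18.2 against -15.8 and -16.6, and in SUM159PT siNS replicate 1 lay at 40.1 against -28.1 to -10.3 for the other siNS libraries. RNA was selected on poly-T beads, so a change in the amount of a mitochondrial transcript and a change in its polyadenylation cannot be told apart. In such bulk samples fewer cells of a type and less RNA per cell cannot be told apart either.

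YES1 (ENSG00000176105), the targeted gene, was lower in every siYES1 library than in every siNS library of its line. In MDA-MB-231 it was at 71.4, 57.1, 63.8 and 60.3 CPM (a gene's count relative to the TMM-scaled library total) in siNS replicates 1 to 4 and at 13.5, 14.5, 14.3 and 12.7 CPM with siYES1. In SUM159PT it was at 99.7, 149.6, 151 and 136 CPM with siNS and at 15.8, 15.7, 19.4 and 17.9 CPM with siYES1. The log2 fold changes were -2.20 ± 0.09 (SE, adjusted p = 5.25e-11) and -2.96 ± 0.14 (adjusted p = 3.88e-08).

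Per length, most mitochondrial genes lay above the nuclear members. In TPM (counts per exon length, relative to their sum in the library), siNS levels of the 13 mitochondrial genes ran from 238 to 9824 with a median of 3434 in MDA-MB-231, against 1.14 to 1131 with a median of 116 for the 42 nuclear genes. In SUM159PT the mitochondrial levels ran from 548 to 10535 TPM with a median of 3454, and the nuclear ones from 2.44 to 1518 TPM with a median of 122. Lengths were merged over all annotated exons of a gene, up to 14160 bases for SDHC but 207 to 1812 for the mitochondrial genes. Nuclear levels per length can therefore be understated. MT-CO2, a catalytic core subunit of complex IV, led in MDA-MB-231 at 9824 ± 2704 TPM (SD, n = 4), followed by MT-CO1 at 8556 ± 1995 TPM, a gap smaller than their spread. In SUM159PT MT-ND4L (10535 ± 1174 TPM), MT-CO2 (10295 ± 2066 TPM) and MT-CO1 (10156 ± 1560 TPM) lay within their spread of each other. MT-ATP8, a small subunit of the membrane part of the ATP synthase, was the lowest mitochondrial gene in both lines. ATP5F1B, the catalytic beta subunit of the ATP synthase, was the highest nuclear gene in both. The 4 lowest nuclear genes, NDUFV2, NDUFA13, NDUFA9 and NDUFB8, share exon sequence on the same strand with other genes, so their counts are uncertain. Many members also have near-identical copies elsewhere in the genome that could take some of their reads. Copies of MT-ATP6 had a mean count of 1151 per library against 16735 for the gene, those of MT-ND2 512 against 13297 and those of SDHA 174 against 7108. NDUFV2 was the only member with a copy that had more counts than the gene, 52.7 against 38.8. Summing genes with their copies changed no call among the genes named with values.

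Several mitochondrial messages share bases, and how reads over shared bases were counted is not given in the sources used here. The sequences below, in the sense direction, show the overlaps that bear on MT-ATP8 and MT-ND4L, with the shared bases in capitals (GENCODE 29 transcripts of GRCh38, plus strand of chromosome M). The end of MT-ATP8 (chrM:8497-8572) holds the start of MT-ATP6 (chrM:8527-8602), and the end of MT-ND4L (chrM:10730-10766) holds the start of MT-ND4 (chrM:10760-10796).
MT-ATP8: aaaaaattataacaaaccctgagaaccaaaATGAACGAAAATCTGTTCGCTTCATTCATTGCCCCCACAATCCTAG
MT-ATP6: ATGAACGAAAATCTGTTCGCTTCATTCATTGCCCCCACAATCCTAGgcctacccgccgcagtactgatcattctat
MT-ND4L: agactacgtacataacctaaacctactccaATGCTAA
MT-ND4: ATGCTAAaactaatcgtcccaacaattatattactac
The overlap is 46 bases, 22.22% of MT-ATP8, for the first pair and 7 bases for the second. MT-ATP8 is also the shortest of the 13 genes. Each of these pairs is known to be carried on a shared bicistronic mRNA, so the 13 genes, called messages here for short, are not 13 separate molecules, and the members of a pair are not independent.

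In MDA-MB-231, 5 of the 13 mitochondrial messages rose with siYES1 and MT-ND6 fell. The 5 were MT-ND1, MT-ND2 and MT-ND3, membrane-arm subunits of complex I, and MT-ATP6 and MT-ATP8 of the ATP synthase. A call is an adjusted p under 0.05, which 52.4% of the 14319 tested genes of this line met, 24.9% as risen and 27.5% as fallen. The median log2 fold change of the 13 was 0.25, against 0.00 over all tested genes, and 9 of the 13 were positive. That median was 0.15 without siYES1 replicate 4 and 0.33 without siNS replicate 1. None of the 13 had groups that did not overlap, whereas 47.1% of all tested genes had. MT-ND2 had 834, 679.9, 641 and 616 CPM in siNS replicates 1 to 4 and 830.1, 854, 860.3 and 1090.4 CPM with siYES1. Its siNS replicate 1 lay inside the siYES1 range, and siYES1 replicate 4 lay above all others. The log2 fold change of MT-ND2 was 0.39 ± 0.10 (adjusted p = 0.00431), and this call held in each alternative analysis tried. MT-ND1 had 735, 679, 533 and 513 CPM with siNS and 720.1, 744, 745 and 948 CPM with siYES1. Only siNS replicate 1 reached the siYES1 range. The log2 fold change of MT-ND1 was 0.36 ± 0.11 (adjusted p = 0.0138), and without siYES1 replicate 4 it was 0.26 (adjusted p = 0.0616). 

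The other rises were smaller or rested on few counts. MT-ND3 was at 302 ± 28.8 CPM (SD, n = 4) with siNS and 371 ± 60.9 with siYES1 (log2 fold change 0.29 ± 0.10, adjusted p = 0.0223). MT-ATP6 was at 926 ± 104 and 1099 ± 90.9 CPM (0.25 ± 0.09 on the log2 scale, adjusted p = 0.0234). MT-ATP8 was at 12.4 ± 3.80 and 17.6 ± 2.68 CPM (0.50 ± 0.17, adjusted p = 0.0236). All of these calls were lost without siNS replicate 4, where the adjusted p was 0.0678, 0.0759 and 0.0682, and without siYES1 replicate 4, where it was 0.111, 0.0949 and 0.0867, in the order named. MT-ATP6 also missed the threshold without siNS replicate 3 (0.0552) and MT-ATP8 without siNS replicate 2 (0.0643). Without siNS replicate 1, which had the highest mitochondrial level, 9 of the 13 messages rose, the 5 above joined by MT-ND4 (0.33), MT-ND4L (0.67), MT-CYB (0.33) and MT-CO3 (0.34), all on the log2 scale. Without siNS replicate 4 the number that rose was 2, and without siYES1 replicate 4 it was 1. The catalytic complex IV messages MT-CO1 (log2 fold change -0.05) and MT-CO2 (-0.10) and MT-ND5 (-0.12) did not pass the test, nor did MT-ND4 (0.20), MT-ND4L (0.38), MT-CYB (0.22) and MT-CO3 (0.25) with all libraries. With total counts as the scaling the rises of MT-ND3 and MT-ATP6 missed the threshold (adjusted p = 0.0549 and 0.0652), as those of MT-ND3, MT-ATP6 and MT-ATP8 did in a joint fit of both lines (0.169, 0.226 and 0.0594).

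MT-ND6, the only message of the light strand and a membrane-arm subunit of complex I, went the other way in MDA-MB-231. It was at 325, 366, 309 and 252 CPM in siNS replicates 1 to 4 and at 223, 208, 225 and 267 CPM with siYES1. Only siYES1 replicate 4 and siNS replicate 4 overlapped. The log2 fold change was -0.44 ± 0.10 (adjusted p = 0.00186), and MT-ND6 stayed called in each alternative analysis. Its sequence differs in composition from the heavy-strand messages, being rich in G, as its first 90 bases show beside those of its neighbours MT-CYB and MT-ND5 (G in capitals, sense direction, GENCODE 29). MT-ND6 lies on the minus strand at chrM:14584-14673, MT-CYB on the plus strand at chrM:14747-14836 and MT-ND5 on the plus strand at chrM:12337-12426.
MT-ND6: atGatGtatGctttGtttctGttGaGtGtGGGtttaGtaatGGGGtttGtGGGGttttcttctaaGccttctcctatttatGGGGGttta
MT-CYB: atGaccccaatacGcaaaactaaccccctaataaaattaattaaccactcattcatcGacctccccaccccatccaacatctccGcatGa
MT-ND5: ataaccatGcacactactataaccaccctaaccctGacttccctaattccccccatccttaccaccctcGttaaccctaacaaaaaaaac
These 90 bases hold 27 G in MT-ND6, 5 in MT-CYB and 3 in MT-ND5. Over the whole message G made up 35.6% of MT-ND6 and between 6.3% and 16.2% of each of the 12 heavy-strand messages. Whether strand was kept in these libraries is unsettled in the labels, so reads of MT-ND6 and of any transcript antisense to it cannot be told apart. MT-ND5, on the other strand, ends at the base before MT-ND6. In MDA-MB-231 MT-ND5 was at 1807 TPM with siNS and 1601 with siYES1, and MT-ND6 at 2335 and 1666 TPM. In SUM159PT MT-ND5 was at 2851 and 1915 TPM, and MT-ND6 at 2933 and 2004 TPM. These levels were not TMM-scaled, and the fitted log2 fold changes in SUM159PT were smaller, -0.40 for MT-ND5 and -0.38 for MT-ND6. Whether antisense reads added to the MT-ND6 counts was not tested. Of 23 coding genes overlapped over at least 90% of their exon bases on the opposite strand alone, 1 reached a mean of 10 counts, against 4 of 356 overlapped on the same strand and 59.96% of those with no overlap. Overlap on the opposite strand thus went with low counts, much as overlap on the same strand did, although the strand option itself is not given.

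**Figure D1:**
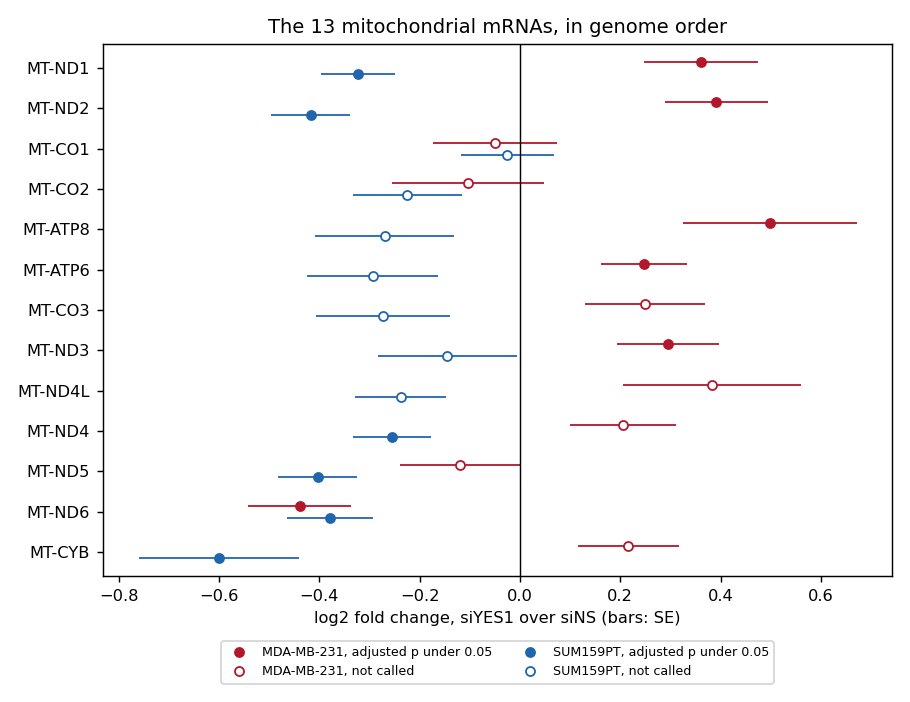
Log2 fold changes of siYES1 over siNS (x axis) for the 13 mitochondrial messages in genome order (y axis), with MDA-MB-231 in red and SUM159PT in blue; bars are standard errors and filled points have an adjusted p under 0.05. All 13 SUM159PT points lie below 0, while 9 of the 13 MDA-MB-231 points lie above it, and MT-ND6 lies below 0 in both lines.

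In SUM159PT, all 13 mitochondrial messages had a negative log2 fold change and 6 fell, from -0.60 for MT-CYB to -0.25 for MT-ND4. In this line 36.8% of the 14469 tested genes were called, 17.7% as risen and 19.0% as fallen, and 36.8% had groups that did not overlap. The groups did not overlap for MT-ND1, MT-ND2, MT-ND5 and MT-ND6, all membrane-arm subunits of complex I. The 13 had a median of -0.27, against -0.03 over all tested genes. MT-ND5 had 1339.8, 1187, 1376 and 1372 CPM in siNS replicates 1 to 4 and 903, 966, 994 and 1126 CPM with siYES1. Every siYES1 library was below every siNS library, and the log2 fold change was -0.40 ± 0.08 (adjusted p = 0.00146). MT-ND2 had 848, 677, 738 and 736 CPM with siNS and 539, 545, 549 and 612 CPM with siYES1 (-0.42 ± 0.08 on the log2 scale, adjusted p = 0.00113). Its nearest libraries across the groups were siNS replicate 2 and siYES1 replicate 4. MT-ND1 had 755, 868, 897 and 861 CPM with siNS and 679.6, 692, 619 and 711 CPM with siYES1, a log2 fold change of -0.32 ± 0.07 (adjusted p = 0.00388). MT-ND6 had 397, 358, 414 and 404 CPM with siNS and 286, 275, 297 and 352 CPM with siYES1, a log2 fold change of -0.38 ± 0.09 (adjusted p = 0.00394). For both of these genes every siYES1 library lay below every siNS library.

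MT-CYB, cytochrome b and the only mitochondrial subunit of complex III, had the most negative value of the 13, with siNS libraries that lay far from each other. It stood at 904, 443, 589 and 642 CPM in siNS replicates 1 to 4 and at 406, 402, 428 and 465 CPM with siYES1. siNS replicate 2 lay inside the siYES1 range and siNS replicate 1 far above it. The log2 fold change was -0.60 ± 0.16 (adjusted p = 0.00991). The calls of MT-CYB, MT-ND1, MT-ND2, MT-ND5 and MT-ND6 held in each alternative analysis. The size of the MT-CYB fall varied among those analyses, from -0.78 to -0.40 on the log2 scale. MT-ND4 (-0.25 ± 0.08, adjusted p = 0.0199) missed the threshold without siNS replicates 3 (0.0707) or 4 (0.0612) and without siYES1 replicates 1 (0.0673), 2 (0.0738) or 3 (0.0638), and in the joint fit of both lines (0.107). The complex IV messages MT-CO1 (-0.03), MT-CO2 (-0.22) and MT-CO3 (-0.27), the ATP synthase messages MT-ATP6 (-0.29) and MT-ATP8 (-0.27), and MT-ND3 (-0.14) and MT-ND4L (-0.24) did not pass the test. Without siNS replicate 2, which had the lowest mitochondrial level of its group, the number that fell was 11 and the median of the 13 was -0.36. Without siNS replicate 3 the number that fell was 5. The median was least negative without siYES1 replicate 1, at -0.24. With total counts as the scaling, 11 of the 13 fell. The median of the 13 then became -0.45, while that of all tested genes moved from -0.03 to -0.20. MT-CO1, which per length was among the most abundant, had 3991 ± 507 CPM (SD, n = 4) with siNS and 3922 ± 342 with siYES1, a difference well inside its spread.

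The response of the mitochondrial messages was then compared between the lines by the interaction, taken as SUM159PT minus MDA-MB-231. Over all 16299 genes tested, 24.3% differed, 15.4% with a higher and 8.85% with a lower response in SUM159PT. Of the 13 mitochondrial messages 3 differed, all lower in SUM159PT. The difference was -0.71 ± 0.14 log2 units for MT-ND2 (adjusted p = 0.000897), -0.59 ± 0.15 for MT-ND1 (adjusted p = 0.00706) and -0.72 ± 0.21 for MT-CYB (adjusted p = 0.0135), and these calls held in each alternative analysis. MT-ND6 (0.16, adjusted p = 0.470) and MT-CO1 (0.12, adjusted p = 0.663) had the only positive values, and both turned negative with total counts as the scaling (-0.06 and -0.10). The median difference of the 13 was -0.42, against 0.03 for all genes. The number of mitochondrial messages that differed depended on single libraries. It was 8 without MDA-MB-231 siNS replicate 1, 6 without SUM159PT siNS replicate 1, 7 without SUM159PT siNS replicate 2 and 5 without SUM159PT siYES1 replicate 4. MT-ND1 and MT-ND2 were called in opposite directions in the lines, as 3.65% of the 12689 genes tested in both lines were. MT-ND6 fell in both, and 20.5% of those genes were called in the same direction in both.

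**Figure D2:**
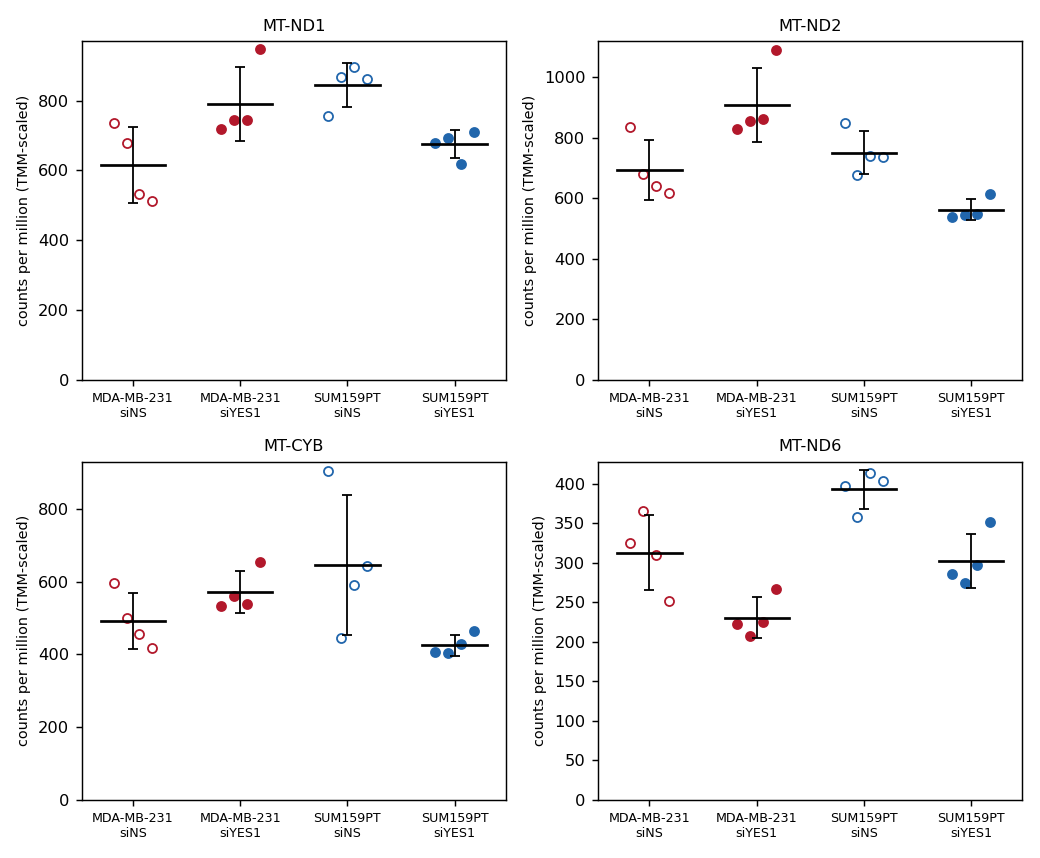
Scaled CPM (y axis, from 0) of MT-ND1, MT-ND2, MT-CYB and MT-ND6 in each library; open points are siNS, filled points siYES1, the long line is the group mean and the bar 1 SD (n = 4). MT-ND2 runs from 616 to 834 CPM with siNS and 830.1 to 1090.4 with siYES1 in MDA-MB-231, and from 677 to 848 with siNS and 539 to 612 with siYES1 in SUM159PT.

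Summed over the 13 messages, the mitochondrial share of all gene counts was 1.55%, 1.33%, 1.10% and 1.01% in MDA-MB-231 siNS replicates 1 to 4 and 1.21%, 1.23%, 1.24% and 1.5% with siYES1. The groups overlapped, and the ratio of the means was 1.04, or 0.975 without siNS replicate 4. In SUM159PT the share was 1.92%, 1.35%, 1.68% and 1.69% with siNS and 1.18%, 1.18%, 1.25% and 1.41% with siYES1. The ratio of these means was 0.758, with siNS replicate 2 inside the siYES1 range. That ratio was 0.713 without siNS replicate 2 and 0.80 without siNS replicate 1. The summed 42 nuclear members made up 0.488% and 0.473% of counts in MDA-MB-231 and 0.580% and 0.541% in SUM159PT, siNS first, and those groups overlapped too. On the log2 scale the ratio of mitochondrial to nuclear members differed by 0.11 in MDA-MB-231 and by -0.29 in SUM159PT, with overlapping groups in both lines. In MDA-MB-231 it was -0.00096 without siNS replicate 4 and 0.27 without siNS replicate 1. Shares were taken of total counts, without TMM scaling. In SUM159PT, total counts in place of TMM moved the median log2 fold change of all tested genes from -0.03 to -0.20. The SUM159PT shares hold this shift too, whereas the ratio of mitochondrial to nuclear members does not depend on scaling. These sums are descriptions and were not tested.

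Within the mitochondrial pool, MT-ND6 took a smaller share with siYES1 in MDA-MB-231. It made up 2.17%, 2.75%, 2.85% and 2.53% of the 13 messages in siNS replicates 1 to 4 and 1.83%, 1.66%, 1.79% and 1.75% with siYES1, so that the groups did not overlap. In SUM159PT the share was 2.31%, 2.73%, 2.58% and 2.51% with siNS and 2.26%, 2.18%, 2.27% and 2.35% with siYES1, and the groups overlapped at siNS replicate 1. The ratio of the means, siYES1 over siNS, was 0.682 for MDA-MB-231 and 0.894 for SUM159PT. This share does not depend on how libraries are scaled, but the strand limit given above for MT-ND6 holds for it too.

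**Figure D3:**
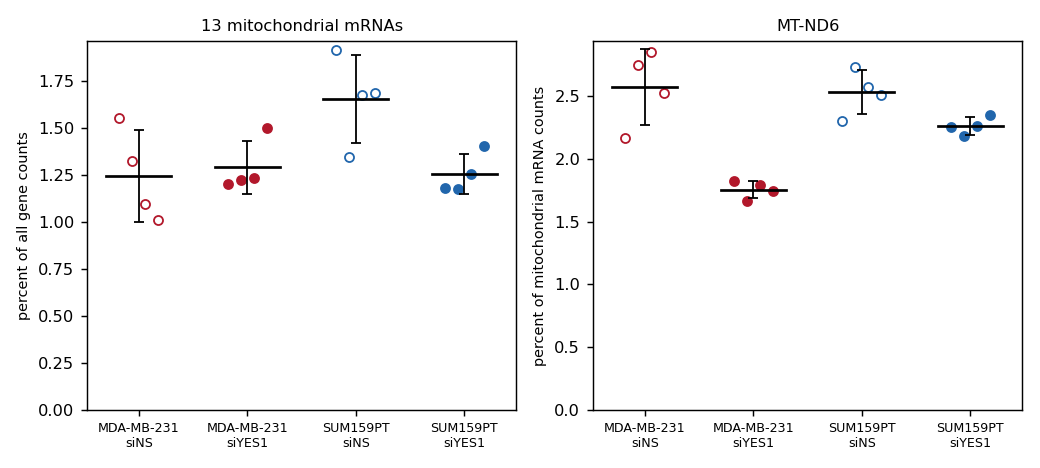
Left, percent of all gene counts in the 13 mitochondrial messages; right, MT-ND6 as percent of the counts of those 13, each in every library (y axes from 0; open points siNS, filled siYES1; line and bar are mean and SD, n = 4). The total shares overlap in both lines, whereas the MT-ND6 shares of MDA-MB-231 run from 2.17% to 2.85% with siNS and from 1.66% to 1.83% with siYES1.

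Of the 42 nuclear members, 6 rose and 6 fell in MDA-MB-231 (28.6% called) and 8 rose and 4 fell in SUM159PT (28.6%), both below the 52.4% and 36.8% of all tested genes called in these lines. Their median log2 fold changes were 0.05 and 0.04. Groups did not overlap for 10 of the 42 in MDA-MB-231 and for 13 in SUM159PT, against 47.1% and 36.8% of all tested genes. The split of calls in SUM159PT depended on the scaling, since with total counts 0 of the 42 rose and 9 fell. The number risen in SUM159PT also rested on single libraries, being 3 without siNS replicate 3, 2 without siNS replicate 4, and 2, 4, 2 and 5 without siYES1 replicates 1 to 4 in turn. NDUFB3, NDUFB10 and SDHC were called in the same direction in both lines, which is 3 of 42, whereas 20.5% of all genes tested in both lines were.

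NDUFB3, an accessory subunit of the membrane arm of complex I, rose in both lines. It was at 21.6, 25.3, 29.5 and 29 CPM in MDA-MB-231 siNS replicates 1 to 4 and at 35.8, 40.9, 48.7 and 51.6 CPM with siYES1. In SUM159PT it was at 42.4, 31.3, 35.0 and 27.0 CPM with siNS and at 49.0, 49.2, 51.7 and 46.0 CPM with siYES1. The groups did not overlap in either line. The log2 fold changes were 0.75 ± 0.12 (adjusted p = 7.02e-05) and 0.53 ± 0.13 (adjusted p = 0.00508), and in SUM159PT the call was lost with total counts as the scaling (0.35, adjusted p = 0.0601). NDUFB3 shares 19.76% of its exon bases with FAM126B on the opposite strand, so its counts are uncertain if strand was not kept.

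NDUFB10, another accessory subunit of that arm, fell in both lines. It was at 69.9, 89.7, 77.2 and 85.7 CPM in MDA-MB-231 siNS libraries and at 63.3, 66.4, 60.8 and 65.2 CPM with siYES1. In SUM159PT it was at 84.3, 79.6, 71.6 and 79.9 CPM with siNS and at 62.5, 62.1, 64.2 and 63.2 CPM with siYES1. The groups were apart in both lines, with log2 fold changes of -0.33 ± 0.09 (adjusted p = 0.00348) and -0.32 ± 0.08 (adjusted p = 0.00560). NDUFB3 and NDUFB10, subunits of the same arm, thus moved in opposite directions. The 7 NDUFB members together had 1 risen and 1 fallen in MDA-MB-231 and 2 risen and 1 fallen in SUM159PT.

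SDHC, a membrane anchor of complex II (succinate dehydrogenase), also fell in both lines. It was at 118, 112, 123 and 120.5 CPM in MDA-MB-231 siNS libraries and at 93.3, 94.0, 90.1 and 97.4 CPM with siYES1. In SUM159PT it was at 95.3, 71.9, 88.2 and 75.9 CPM with siNS and at 62.2, 58.2, 62.6 and 68.1 CPM with siYES1. The groups did not overlap, with log2 fold changes of -0.34 ± 0.07 (adjusted p = 0.000562) and -0.40 ± 0.10 (adjusted p = 0.00689). The calls of SDHC and NDUFB10 held in each alternative analysis in both lines.

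The other subunits of complex II did not follow SDHC. SDHD, the second membrane anchor, was at 41.0, 47.0, 53.7 and 48.2 CPM in MDA-MB-231 siNS libraries and at 65.2, 67.7, 78.6 and 71.8 CPM with siYES1. The groups were apart, and the log2 fold change was 0.58 ± 0.09 (adjusted p = 5.63e-05). SDHD shares 11.24% of its exon bases on its own strand and 0.92% on the opposite strand. Its overlapping genes, TIMM8B and AP002884.3, had a summed mean count of 721 against 802 for SDHD. Which of them holds these counts is not split here, so the counts of SDHD are uncertain too. In SUM159PT SDHD was at 25.6, 33.2, 26.3 and 23.1 CPM with siNS and at 32.1, 36.9, 31.9 and 32.2 CPM with siYES1, a log2 fold change of 0.30 ± 0.12 that did not pass the test (adjusted p = 0.0724). SDHA, the flavoprotein that oxidises succinate, fell in MDA-MB-231, from 276, 320.1, 308 and 338 CPM to 263, 277, 256 and 252 CPM. siYES1 replicate 2 just overlapped siNS replicate 1, and the log2 fold change was -0.25 ± 0.07 (adjusted p = 0.0106). In SUM159PT SDHA stood at 396, 504, 455 and 455 CPM with siNS and 521, 499, 486 and 491 CPM with siYES1, a log2 fold change of 0.14 (adjusted p = 0.166). SDHB, the iron-sulfur subunit, rose in SUM159PT (85.9 ± 4.44 to 102 ± 8.08 CPM, log2 fold change 0.24 ± 0.08, adjusted p = 0.0316), a call lost without siNS replicates 2, 3 or 4 and without siYES1 replicates 1, 2 or 3 (adjusted p = 0.0618, 0.0671, 0.0713, 0.0955, 0.0630 and 0.0891 in that order) and with total counts as the scaling (0.548).

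**Figure D4:**
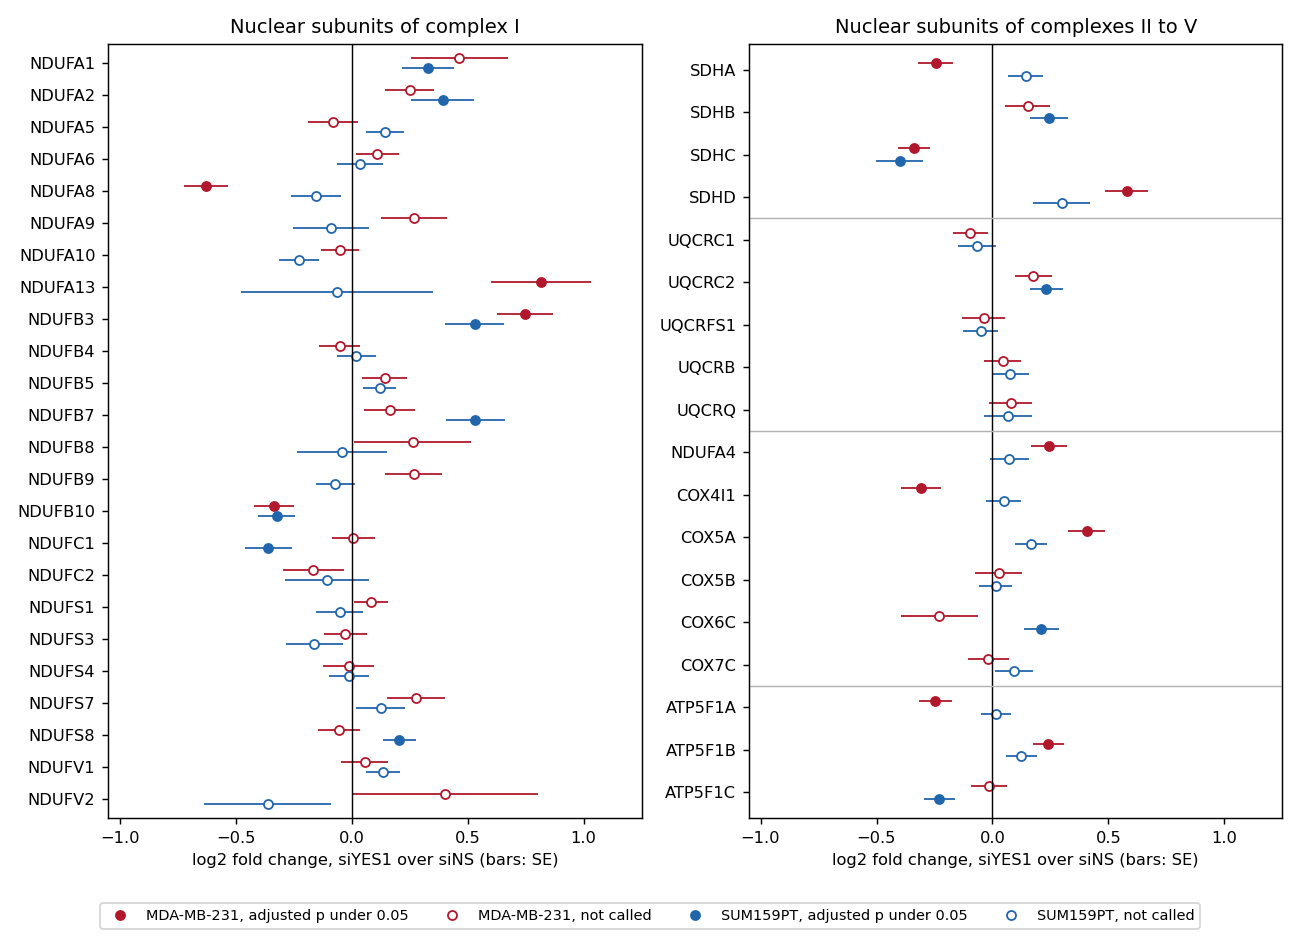
Log2 fold changes of siYES1 over siNS (x axis) for the 42 nuclear members (y axis, complex I left and complexes II to V right, separated by grey lines); red is MDA-MB-231, blue SUM159PT, bars are standard errors and filled points have an adjusted p under 0.05. NDUFB3 lies above 0 and NDUFB10 and SDHC lie below 0 with filled points in both lines, and complex III has 1 filled point, UQCRC2 in SUM159PT.

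In complex I, 2 of 24 nuclear members rose and 2 fell in MDA-MB-231, and 5 rose and 2 fell in SUM159PT. NDUFA8, an accessory subunit on the intermembrane side, had the most negative value of any member in MDA-MB-231. It was at 69.5, 89.6, 96.2 and 96.0 CPM with siNS and at 56.8, 59.4, 55.4 and 55.7 CPM with siYES1, with no overlap and a log2 fold change of -0.63 ± 0.10 (adjusted p = 4.1e-05). In SUM159PT the same gene was at 48.7, 50.1, 44.4 and 44.0 CPM with siNS and at 47.1, 40.9, 45.4 and 35.1 CPM with siYES1, overlapping groups with a log2 fold change of -0.15 (adjusted p = 0.287). NDUFA13, an accessory subunit also named GRIM-19, had the largest positive value in MDA-MB-231 (0.82 ± 0.21, adjusted p = 0.00433) but few counts, 1.69 to 2.52 CPM with siNS and 2.81 to 4.71 CPM with siYES1. It shares 20.97% of its exon bases with other genes on its strand, and in a joint fit of both lines it missed the threshold (adjusted p = 0.0618).

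In SUM159PT the risen complex I members other than NDUFB3 were NDUFB7, NDUFA2, NDUFA1 and NDUFS8. NDUFB7, an accessory subunit, was at 51.8, 35.1, 34.1 and 38.0 CPM with siNS and at 59.6, 60.4, 57.0 and 52.9 CPM with siYES1 (log2 fold change 0.53 ± 0.13, adjusted p = 0.00519). siNS replicate 1 stood above its group but below all siYES1 libraries. With total counts as the scaling the value of NDUFB7 was 0.36 (adjusted p = 0.0642). NDUFA2 (27.2 ± 5.11 to 35.7 ± 3.02 CPM, log2 fold change 0.39 ± 0.14, adjusted p = 0.0364) lost its call without siNS replicates 3 (0.0937) or 4 (0.0987), without siYES1 replicates 1 (0.102), 3 (0.0816) or 4 (0.0638) and with total counts (0.233). NDUFA1 (47.6 ± 7.47 to 59.8 ± 4.45 CPM, 0.33 ± 0.11, adjusted p = 0.0349) lost its call without siNS replicates 3 (0.0853) or 4 (0.105) and without siYES1 replicates 1 (0.104), 2 (0.0670) or 3 (0.0793), with total counts (0.265) and in the joint fit (0.135). NDUFA1 shares 44.52% and NDUFA2 13.04% of their exon bases with genes on the opposite strand, so the same limit holds for them if strand was not kept. NDUFS8, a core iron-sulfur subunit, went from 100.3 ± 3.70 to 116 ± 6.50 CPM (0.21 ± 0.07, adjusted p = 0.0405). Its call was lost without siNS replicates 3 (0.0762) or 4 (0.0698) and without any 1 of the siYES1 libraries (0.0711, 0.134, 0.0685 and 0.0575 for replicates 1 to 4). With total counts as the scaling its adjusted p was 0.702, and with no filter it was 0.0996. NDUFC1, an accessory subunit, which shares 18.55% of its exon bases with MGARP on its own strand (mean count 1.94), fell from 36.3, 34.7, 33.0 and 36.0 CPM to 23.9, 26.9, 29.5 and 28.8 CPM without overlap (-0.36 ± 0.10, adjusted p = 0.0142), and without siYES1 replicate 1 its value was -0.30 (adjusted p = 0.0585).

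Complex III had few calls. None of its 5 nuclear members passed the test in MDA-MB-231, and in SUM159PT UQCRC2, a core protein of the complex, rose from 200.2 ± 13.5 to 235 ± 8.46 CPM (log2 fold change 0.23 ± 0.07, adjusted p = 0.0224). That call was lost without siNS replicate 4 (0.0528) or siYES1 replicates 1 (0.0613) or 3 (0.0663), and with total counts as the scaling (0.457). In complex IV, COX5A rose in MDA-MB-231, from 80.1, 91.4, 94.2 and 98.5 CPM to 114, 115, 127 and 127 CPM, with no overlap (0.41 ± 0.08, adjusted p = 0.000429). COX4I1, which COX5A joins early in assembly, fell there from 149.6, 201, 182 and 192 CPM to 141, 144, 145 and 156 CPM, with siNS replicate 1 inside the siYES1 range (-0.31 ± 0.09, adjusted p = 0.00687). NDUFA4, now assigned to complex IV, rose in MDA-MB-231 from 107 ± 8.0 to 127 ± 8.81 CPM (0.24 ± 0.08, adjusted p = 0.0147), or an adjusted p of 0.0620 without siYES1 replicate 3 and 0.0795 in the joint fit. COX6C, another nuclear subunit of complex IV, rose in SUM159PT from 107 ± 6.68 to 124 ± 5.45 CPM (0.21 ± 0.07, adjusted p = 0.0411). Its call was lost without siNS replicates 3 (0.0616) or 4 (0.116), without any 1 of the siYES1 libraries (0.128, 0.0668, 0.0747 and 0.0660 for replicates 1 to 4), with no filter (0.0879), in the joint fit (0.187) and with total counts as the scaling (0.687).

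The catalytic head of the ATP synthase was split in MDA-MB-231. ATP5F1B, the beta subunit, was at 614, 687, 675 and 704 CPM with siNS and at 777, 783, 801 and 807 CPM with siYES1 (log2 fold change 0.24 ± 0.07, adjusted p = 0.00653). ATP5F1A, the alpha subunit, was at 557, 674, 618 and 645 CPM with siNS and at 520.0, 519.8, 535 and 527 CPM with siYES1 (-0.25 ± 0.07, adjusted p = 0.00828). Neither pair of groups overlapped, so these partners in the same hexamer moved apart. ATP5F1C, the gamma subunit, had a log2 fold change of -0.01 in MDA-MB-231 and fell in SUM159PT from 164 ± 5.74 to 139.6 ± 5.88 CPM (-0.23 ± 0.07, adjusted p = 0.0187). Its fall missed the threshold without siNS replicate 3 (0.0576) and without siYES1 replicates 2 (0.0683), 3 (0.0595) or 4 (0.0555), and with no filter on low counts (0.0869).

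Among nuclear members 5 of 42 differed in response between the lines, all with a higher response in SUM159PT, whereas with total counts as the scaling 1 was higher and 4 were lower. These were NDUFA8 (0.57 ± 0.15 log2 units, adjusted p = 0.00692), SDHA (0.48 ± 0.11, adjusted p = 0.00235), COX4I1 (0.45 ± 0.12, adjusted p = 0.00782), ATP5F1A (0.36 ± 0.09, adjusted p = 0.00747) and NDUFS8 (0.36 ± 0.12, adjusted p = 0.0376). The first 4 of these had fallen in MDA-MB-231 and did not pass the test in SUM159PT. SDHA kept its call in each alternative analysis, while the other 4 lost theirs with total counts as the scaling (adjusted p = 0.0914 for NDUFA8, 0.139 for COX4I1, 0.316 for ATP5F1A and 0.423 for NDUFS8). ATP5F1A (0.0565) and NDUFS8 (0.121) also lost theirs with no filter on low counts, and NDUFS8 with RLE scaling (0.0851) and DESeq2 (0.0713). NDUFS8 also lost its call without MDA-MB-231 siNS replicates 2 (0.0820) or 4 (0.0557), without MDA-MB-231 siYES1 replicates 1 (0.0844), 2 (0.0625) or 3 (0.0655), without SUM159PT siNS replicates 1 (0.105) or 4 (0.0514) and without SUM159PT siYES1 replicate 2 (0.0864). Together 8 of the 55 members differed, or 14.5%, against 24.3% of all tested genes.

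**Figure D5:**
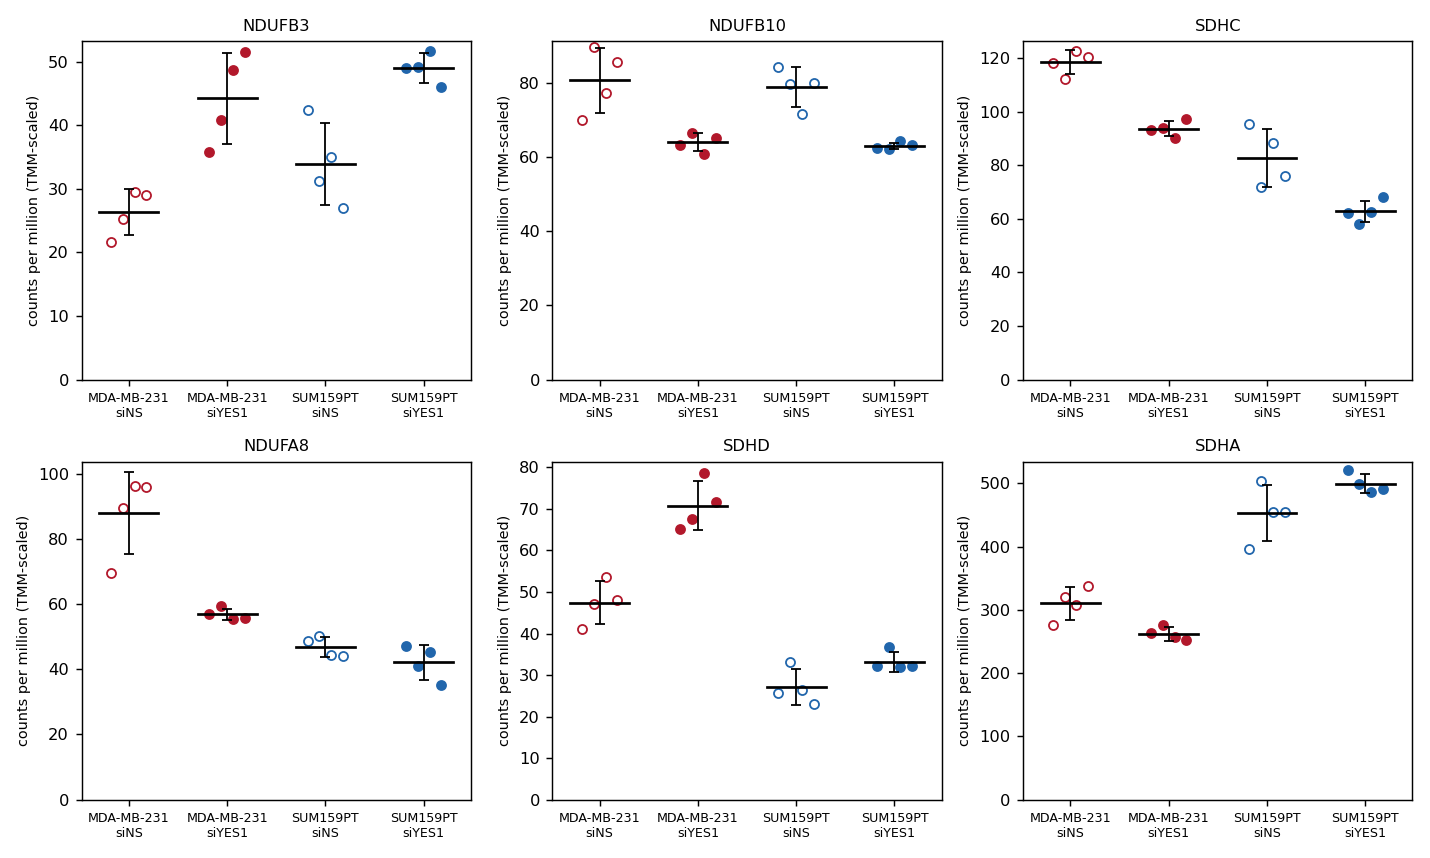
Scaled CPM (y axis, from 0) of NDUFB3, NDUFB10, SDHC, NDUFA8, SDHD and SDHA in each library; open points are siNS, filled points siYES1, the long line is the group mean and the bar 1 SD (n = 4). NDUFB3, NDUFB10 and SDHC move the same way in both lines, and NDUFA8 runs from 69.5 to 96.2 CPM with siNS and from 55.4 to 59.4 CPM with siYES1 in MDA-MB-231.

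Promoter windows from 250 bases before to 50 bases after the start, from RefSeq (GRCh38.p14), were found for 34 of the 42 nuclear members and searched on both strands for letters bound by factors known to act at such genes. The core of the NRF1 site, CGCATGCG, was in 17.6% of the 34 and in 2.5% of all 27305 genes with a window, and the YY1 letters AAGATGGC were in 20.6% and 3.5%. The ETS core CCGGAAG, read by GABP, was in 32.4% and 12.2%, and the GC box GGGCGGG in 44.1% and 36.7%. SDHD was the only member with the ERR letters TCAAGGTCA, found in 0.4% of all genes. SDHD and NDUFA8, which moved in opposite directions in MDA-MB-231, both hold the NRF1 core, and their windows are shown with every match in capitals, 5′ to 3′ in the sense of the gene. The SDHD window is the plus strand of chr11:112086623-112086922, and its capitals mark the NRF1 core, the ETS core and the ERR letters in that order, the ETS core and the ERR letters being on the opposite strand. The NDUFA8 window is the minus strand of chr9:122159730-122160029, and its capitals mark the NRF1 core.
SDHD: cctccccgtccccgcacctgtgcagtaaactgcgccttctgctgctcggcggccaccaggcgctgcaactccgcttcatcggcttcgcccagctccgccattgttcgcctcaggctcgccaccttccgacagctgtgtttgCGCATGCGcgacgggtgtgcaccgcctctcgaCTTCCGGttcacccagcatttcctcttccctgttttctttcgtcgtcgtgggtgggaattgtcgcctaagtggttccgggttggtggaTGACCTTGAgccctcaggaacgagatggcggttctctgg
NDUFA8: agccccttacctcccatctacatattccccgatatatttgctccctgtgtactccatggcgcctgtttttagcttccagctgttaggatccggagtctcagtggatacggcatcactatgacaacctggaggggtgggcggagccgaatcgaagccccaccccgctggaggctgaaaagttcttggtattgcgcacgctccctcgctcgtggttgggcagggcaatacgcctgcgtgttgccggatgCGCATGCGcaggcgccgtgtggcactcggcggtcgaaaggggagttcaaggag
The other members with the NRF1 core were ATP5F1C, NDUFA5, NDUFB4 and NDUFS7, none of which passed the test in MDA-MB-231. A match is a description of the letters and not of binding.

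The remaining genes of the pathway moved in both directions, and the counts of each list that follow are to be read against the 52.4% of all tested genes called in MDA-MB-231 and the 36.8% in SUM159PT. Of 35 tested other nuclear subunits, 6 rose and 1 fell in MDA-MB-231 and 6 rose and 2 fell in SUM159PT (medians 0.11 and 0.10 on the log2 scale). With total counts as the scaling these counts were 5 risen and 3 fallen, and 1 risen and 5 fallen. ATP5MC2, which encodes the proton-carrying c subunit of the ATP synthase, rose in both (log2 fold changes 0.47 ± 0.09, adjusted p = 0.000303, and 0.45 ± 0.08, adjusted p = 0.000896), and ATP5MC1, a second gene for that subunit, rose in MDA-MB-231 (0.80 ± 0.10, adjusted p = 5.8e-06). Of the tested tissue isoforms and partners, 2 of 5 rose and 0 fell in MDA-MB-231 and 2 of 7 rose and 1 fell in SUM159PT (1 and 1 with total counts). CYCS, cytochrome c, which carries electrons from complex III to IV, rose in both (0.66 ± 0.08, adjusted p = 2.94e-06, and 0.44 ± 0.12, adjusted p = 0.0127). Of 46 assembly factors, 14 rose and 8 fell in MDA-MB-231 and 4 rose and 4 fell in SUM159PT (2 and 7 with total counts). SDHAF4, which assists SDHA, fell in MDA-MB-231 (-0.78 ± 0.15, adjusted p = 0.000304), and COX17, a copper carrier for complex IV, rose in SUM159PT (0.85 ± 0.09, adjusted p = 2.04e-05). 

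Genes that copy, transcribe and process the mitochondrial genome were counted beside its messages. Of 18 genes of mitochondrial transcription and replication, 5 rose and 1 fell in MDA-MB-231 and 2 rose and 1 fell in SUM159PT (1 and 1 with total counts). TFAM, which packages the genome and starts its transcription, rose in MDA-MB-231 (log2 fold change 0.78 ± 0.07, adjusted p = 1.79e-07), as did the nuclease MGME1 (0.92 ± 0.08, adjusted p = 1.01e-07). TWNK, the replicative helicase, rose in both lines (0.71 ± 0.08, adjusted p = 1.75e-06, and 0.47 ± 0.12, adjusted p = 0.00628). Of 22 genes of mitochondrial RNA processing and stability, 8 rose and 2 fell in MDA-MB-231 (6 and 3 with total counts), while 0 rose and 6 fell in SUM159PT. Both counts lie below the shares of all tested genes called, 52.4% and 36.8%. PTCD2, which is needed to process the MT-CYB message, rose in MDA-MB-231 (0.46 ± 0.11, adjusted p = 0.00156) and fell in SUM159PT (-0.43 ± 0.12, adjusted p = 0.0105). GRSF1, an RNA-binding protein of mitochondrial granules known to bind the MT-ND6 message, rose in MDA-MB-231 (0.46 ± 0.07, adjusted p = 2.15e-05). Larger changes in this list were the rises of LACTB2 (0.91) and HSD17B10 (0.68) in MDA-MB-231. In SUM159PT they were the falls of FASTKD3 (-0.62), TRMT10C (-0.53) and ELAC2 (-0.46). A link of any of these genes to the changes of the messages was not tested. In the test of the difference, 1 gene of the processing list was higher and 4 were lower in SUM159PT, PTCD2 among the latter (0 and 10 with total counts). Of 83 mitochondrial ribosomal proteins, 17 rose and 9 fell in MDA-MB-231 (14 and 14 with total counts) and 11 rose and 12 fell in SUM159PT (4 and 20 with total counts). Of 8 nuclear regulators of these genes, 4 rose in MDA-MB-231, NRF1 among them (0.48 ± 0.09, adjusted p = 0.000363), and 3 in SUM159PT, among them PPARGC1A (0.85 ± 0.23, adjusted p = 0.0107). The median log2 fold changes of these lists ran from 0.06 to 0.28 in MDA-MB-231 and from -0.07 to 0.27 in SUM159PT, beside 0.00 and -0.03 over all tested genes.

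Markers of cell identity also differed between the siRNA groups, and their part in the results above was not tested. Of 5 epithelial markers 2 rose and 2 fell in MDA-MB-231, and of 3 tested in SUM159PT 2 fell. Their summed CPM was 1930 to 2530 with siNS and 2076 to 2156 with siYES1 in MDA-MB-231, and 413 to 488 and 233 to 247 in SUM159PT. Of 5 mesenchymal and basal markers, 2 rose in MDA-MB-231 and 3 in SUM159PT, with none fallen. Their sum was 3241 to 3384 CPM with siNS and 3969 to 4063 CPM with siYES1 in MDA-MB-231, and 2800 to 3478 CPM and 4527 to 4651 CPM in SUM159PT. The receptors ESR1, PGR and ERBB2 summed to at most 126 CPM in any library, with PGR at 0 in every MDA-MB-231 library and the 1 tested receptor not called in either line. Blood cell markers summed to at most 10.2 CPM, with HBB and CD3E at 0 in every siNS library of both lines, and the 1 tested in MDA-MB-231 and both tested in SUM159PT fell. The 6 endothelial and fibroblast markers summed to 66.5 to 76.5 CPM with siNS and 27.4 to 32.2 with siYES1 in MDA-MB-231, and to 1693 to 1956 and 614 to 720.0 CPM in SUM159PT. All 3 tested of them fell in MDA-MB-231 and all 4 in SUM159PT, among them COL1A1 and PDGFRB in both lines, and CDH5 was at 0 in every MDA-MB-231 siNS and SUM159PT siYES1 library.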

How the data were processed

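The authors deposited raw integer counts per gene, with 1 table for each line. The submitters' processing notes name HISAT2 2.0.5, featureCounts 1.5.0-p3 and the build hg38. Poly-T beads took up the messenger RNA, per the labels' protocols. Neither the annotation release nor the strand option of the counting is given in the sources used here.

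Members and gene lists were chosen with earlier results of these data known. Symbols came from GENCODE 29, and per-length levels (TPM) used its merged exon lengths. The 8 libraries of each line were fitted with edgeR 4.0.16 under R 4.3.3 (filterByExpr, TMM, quasi-likelihood F test), and the difference between lines was the interaction over all 16 libraries. A call is a Benjamini-Hochberg adjusted p below 0.05 among all tested genes, 14319, 14469 and 16299 of them. At an unadjusted p under 0.05 the numbers were 8273, 6656 and 5835. The fit was checked on simulated data.

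No 2 libraries of a group agreed within sampling noise (chi-squared divided by its degrees of freedom 2.21 to 49.6). Depth was 15680459 to 23451253 counts, and edgeR's common coefficient of biological variation 0.0988 for MDA-MB-231 and 0.165 for SUM159PT. Replicate numbers were not used as pairs.

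Values per library were given by rule for YES1, the mitochondrial genes, and per line and direction up to 6 called nuclear members with the largest change. Up to 5 of each sign were named by the difference between lines. Of each list up to 4 called genes per direction with a mean of 5 CPM or more could be named. COX6C, the light-strand tRNA genes and their alternatives were added after the data were seen. Alternatives were RLE (DESeq2) scaling, total counts, scaling without the mitochondrial genome, no low-count filter or 1 at a mean of 1 CPM, the tools DESeq2 1.42.0 and limma-voom (limma 3.58.1), the replicate block, a joint fit, counts summed with named copies, and leaving out each library.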

Additional observations from a re-analysis of the deposited data

Results flagged for a closer look

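Some libraries stood apart from the other 3 of their group. In siYES1 replicate 4 of MDA-MB-231, MT-ND2 was at 1090.4 CPM, MT-ND1 at 948 CPM and MT-ATP8 at 21.6 CPM, against 830.1 to 860.3, 720.1 to 745 and 16 to 16.7 CPM in the other libraries. The same library had 1.5% of its counts in the 13 mitochondrial messages, against 1.21% to 1.24%. In siYES1 replicate 4 of SUM159PT, MT-ND4 was at 2802 CPM and MT-ND2 at 612 CPM, against 2362 to 2432 and 539 to 549 CPM. Among nuclear members, ATP5F1C was at 255 CPM in MDA-MB-231 siNS replicate 2 (205 to 209 in the others) and NDUFS8 at 94.8 CPM in SUM159PT siNS replicate 1 (102 to 103). SDHD was at 36.9 CPM in SUM159PT siYES1 replicate 2 (31.9 to 32.2), and NDUFA13 at 2.38 CPM in SUM159PT siYES1 replicate 3 (1.25 to 1.40). Chance flags about 1 in 20 groups of this size, and 10 of the 144 groups looked at were flagged. Groups drawn from the same libraries are not independent, so these flags cannot be counted as separate events.

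The response to siYES1 differed between the lines, as SUM159PT minus MDA-MB-231, for 8 members, or 14.5% of the 55, against 24.3% of all tested genes. With total counts as the scaling NDUFA8, COX4I1, ATP5F1A and NDUFS8 lost this call. The difference was -0.71 for MT-ND2, -0.59 for MT-ND1, -0.72 for MT-CYB, 0.57 for NDUFA8, 0.48 for SDHA, 0.45 for COX4I1, 0.36 for ATP5F1A and 0.36 for NDUFS8, all in log2 units by the interaction test. The response also differed for MT-TN (0.77), MT-TP (0.80) and MT-TC (0.49), 3 of the 8 light-strand tRNA genes. These 3 were picked after the data were seen and do not stand for all 8.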

How the results depend on the processing

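The members with the fewest counts were NDUFV2, NDUFA13 and NDUFB8, with means of 38.8, 40.2 and 90.3. For the genes named with values, leaving out a library turned 17 values, lost 64 calls and gave 29, and the other alternatives turned 7, lost 33 and gave 42; the cause was not tested. In MDA-MB-231 the 5 risen mitochondrial members became 3 with total counts as the scaling, 9 with no filter and 2 in the joint fit, and the 6 risen nuclear members 10 with no filter. In SUM159PT the 6 fallen mitochondrial members became 11 with total counts and 10 with no filter. With total counts in SUM159PT the mitochondrial median became -0.45, the risen and fallen nuclear members 0 and 9, and the nuclear median -0.13, and MT-TP (-0.088), SDHA (-0.025), COX4I1 (-0.12) and ATP5F1A (-0.16) turned negative. In the joint fit MT-CO1 was at 0.017 in SUM159PT. In the difference between lines the 3 lower mitochondrial members became 6 with RLE scaling and with DESeq2, 9 with total counts and with no filter, and 5 with the filter at 1 CPM. With total counts its mitochondrial median was -0.65, 1 nuclear member was higher and 4 were lower, the nuclear median was -0.14, and MT-ND6 (-0.065) and MT-CO1 (-0.10) turned negative. Total counts moved the median of all tested genes to -0.20 in SUM159PT and to -0.19 in the difference.

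Leaving out each library gave 1 to 9 risen mitochondrial members in MDA-MB-231, and in SUM159PT 5 to 11 fallen mitochondrial and 2 to 9 risen nuclear members. The difference then had 3 to 8 lower mitochondrial members. Values that crossed 0 ran from -0.19 to 0.059 for MT-ND5, -0.16 to 0.071 for MT-CO1, -0.22 to 0.022 for MT-CO2 and -0.12 to 0.040 for NDUFS8 in MDA-MB-231. In SUM159PT they ran from -0.11 to 0.013 for MT-CO1 and from -0.0079 to 0.043 for ATP5F1A, and in the difference from -0.14 to 0.10 for MT-CO2.

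The replicate numbers did not pair the libraries, since same-numbered libraries of the siRNA groups had correlations of -0.123 to 0.0877 in their deviations from the group means. With the replicate block 7109 genes were called in MDA-MB-231, 4961 in SUM159PT and 3545 in the difference. With this block 6 mitochondrial members rose and 1 fell in MDA-MB-231, 7 fell in SUM159PT and 4 were lower in the difference. NDUFS8 (adjusted p = 0.0638) and COX6C (adjusted p = 0.0681) were then not called in SUM159PT.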

Other observations

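The light strand of the mitochondrial genome also carries 8 tRNA genes, of which counts were read although tRNAs are poorly captured in such libraries. The strand limit given for MT-ND6 holds here too, so reads of these genes and of heavy-strand transcripts across them cannot be told apart. Summed, the 8 genes took 1.71%, 1.95%, 1.69% and 2.37% of all mitochondrial-genome counts in MDA-MB-231 siNS replicates 1 to 4 and 1.08%, 1.05%, 1.20% and 1.11% with siYES1, so that the groups did not overlap. In SUM159PT the share was 1.5% to 1.96% with siNS and 1.68% to 1.89% with siYES1. MT-TN, MT-TC and MT-TP were picked from the 8 after the data were seen, and separate values of the others are not given here. MT-TN was at 215, 214, 124 and 174 CPM in MDA-MB-231 siNS libraries and at 91.0, 84.1, 102 and 115 CPM with siYES1. It fell in MDA-MB-231 (log2 fold change -0.89 ± 0.14, adjusted p = 5.51e-05), as did MT-TC (-0.54 ± 0.11, adjusted p = 0.000723) and MT-TP (-0.62 ± 0.16, adjusted p = 0.00417). None of the 3 passed the test in SUM159PT (-0.22, -0.14 and 0.08), and the response differed between the lines for MT-TN (adjusted p = 0.00657), MT-TC (adjusted p = 0.0270) and MT-TP (adjusted p = 0.00855). In SUM159PT, MT-TN and MT-TC fell once siNS replicate 1 was left out (-0.33, adjusted p = 0.000374, and -0.22, adjusted p = 0.0145), and with total counts as the scaling (-0.39, adjusted p = 0.00491, and -0.31, adjusted p = 0.0120). The difference of MT-TC lost its call without MDA-MB-231 siNS replicate 4 (0.0674), without MDA-MB-231 siYES1 replicates 1 (0.0691) or 2 (0.0616), and without SUM159PT siNS replicate 1 (0.0761) or siYES1 replicate 1 (0.0522), and with RLE scaling (0.0543) and total counts (0.194).

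MT-RNR1, the small mitochondrial rRNA, fell in both lines (log2 fold change -0.75 ± 0.17, adjusted p = 0.00176, in MDA-MB-231 and -0.49 ± 0.08, adjusted p = 0.000484, in SUM159PT), and MT-RNR2, the large one, did not pass the test in either (-0.12 and -0.04). In MDA-MB-231 MT-RNR1 was at 652, 694, 333 and 400.4 CPM with siNS and at 317, 267, 307 and 346 CPM with siYES1, so that siNS replicate 3 lay inside the siYES1 range. In SUM159PT the groups did not overlap, at 376 to 437 CPM with siNS and 255 to 310 CPM with siYES1.

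Neighbouring pathways held genes that went the same way in both lines, as 20.5% of all genes tested in both did. The counts that follow stand beside 52.4% of all tested genes called in MDA-MB-231 and 36.8% in SUM159PT. Of 14 genes of the tricarboxylic acid cycle, 3 rose and 4 fell in MDA-MB-231 and 3 rose and 2 fell in SUM159PT (1 and 3 with total counts as the scaling), with SUCLG2, a subunit of succinyl-CoA ligase, risen in both (1.02 ± 0.09 and 0.88 ± 0.07 on the log2 scale) and IDH2 fallen in both (-0.48 ± 0.10 and -0.43 ± 0.09). Of 17 import components, chaperones and porins, 12 rose and 2 fell in MDA-MB-231 and 5 rose and 1 fell in SUM159PT (2 and 3 with total counts). The chaperonins HSPE1 (0.95 ± 0.17 and 0.64 ± 0.17) and HSPD1 (0.56 ± 0.08 and 0.40 ± 0.07) rose in both, and the import channel TOMM40 rose in MDA-MB-231 (0.39 ± 0.09) and fell in SUM159PT (-0.51 ± 0.15). Of 10 genes of coenzyme Q synthesis, 4 rose and 2 fell in MDA-MB-231 and 1 rose and 2 fell in SUM159PT (1 and 5 with total counts). COQ3 rose and PDSS2 and COQ9 fell in both lines.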
